A study of Mus musculus with 18 samples.

Results

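The comparison followed the forelimb digit tip of wild-type mouse embryos from E16.5 to E18.5 (embryonic days after mating), the last part of the period in which the nail takes shape. It used the 6 arrays of the 18 in the series whose labels give a wild-type genotype at either stage, 3 arrays (replicates 1 to 3) at each. The embryos were C57BL/6 of mixed sex, from crosses of Fzd6+/- mice, and each array stands for the RNA of 1 embryo, per the design text. Set beside them, where stated, are the 3 wild-type arrays of E14.5 and the 3 arrays each of Fzd6-/- (knockout, KO) embryos at E16.5 and E18.5, which lack the Wnt receptor Frizzled 6 in every cell. Whole digit tips were excised, so skin, nail, bone, vessels and nerve contributed together, and in such bulk samples fewer cells of a type and less RNA per cell cannot be told apart.

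On each array of 60-base probes, the digit-tip RNA was labelled with Cy3 and a shared reference RNA with Cy5. The reference was a pool from cultured cell lines mixed with embryonic stem cell RNA. Every value below is log2 of Cy3 over Cy5 for one probe, and a change (step) is the mean at E18.5 minus the mean at E16.5. A step of 1 is a 2-fold difference. Where both dyes are dim the log2 ratio lies near 0, so a value near 0 may be a signal at background and not equal amounts of RNA.

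In this window the epidermis of the mouse limb finishes its layering. The basal layer holds the dividing keratinocytes. The layers above it make keratins, the proteins of the cornified envelope and barrier lipids, and the flat periderm that covers the embryo is shed. At the tip of the digit the nail matrix adds hard keratins and their associated proteins to a nail plate, while the last phalanx ossifies beneath it. Frizzled 6 is a receptor of Wnt signalling that is known for its part in hair orientation and nail growth.

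The files give an ID and a sequence for each probe and do not pair these with genes, so probes are named by ID and shown by sequence. The 3 probes with the largest rises and the 3 with the largest falls are printed 5′ to 3′. Capitals mark AATAAA, the hexamer that directs the cutting and polyadenylation of most mammalian messenger RNAs near their 3′ end.
Z00073883-1: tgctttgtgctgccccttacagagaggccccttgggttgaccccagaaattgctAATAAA
Z00071978-1: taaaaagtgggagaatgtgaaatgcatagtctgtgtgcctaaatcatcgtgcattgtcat
Z00071847-1: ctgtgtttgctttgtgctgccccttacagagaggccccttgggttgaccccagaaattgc
Z00071877-1: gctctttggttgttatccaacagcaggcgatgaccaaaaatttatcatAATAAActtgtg
Z00034626-1: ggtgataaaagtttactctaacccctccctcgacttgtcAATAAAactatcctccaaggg
Z00076300-1: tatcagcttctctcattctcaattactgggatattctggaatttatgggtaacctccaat

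Before the results, the spread of the arrays sets their reach. A probe's SD over 3 arrays had a median of 0.16 at E16.5 and 0.20 at E18.5, against 0.07 at E14.5 in the wild type, and the fit across all 18 arrays therefore gave each group its own weight. Over the tested probes, E16.5 arrays correlated with each other at 0.949 to 0.964 and E18.5 arrays at 0.919 to 0.953. Pairs of one array from each stage reached 0.829 to 0.933, so the lowest pair within E18.5, of replicates 1 and 2, lay below the highest pair across stages. WT E18.5 replicate 1 and WT E16.5 replicate 2 correlated least with the other arrays of their stages. Without both of these arrays 2215 probes were called in place of 1048.

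From E16.5 to E18.5, 471 probes rose and 577 fell, 1048 of the 27990 tested (3.74%), by limma with Benjamini-Hochberg adjusted p under 0.05, two-sided. The rising probes were 1.68% of those tested and the falling probes 2.06%. The median step was 0.94 among rising probes, -0.85 among falling probes and -0.01 over all tested probes. A 2-fold change or more was reached by 202 rising and 191 falling probes. The arrays of the 2 stages did not overlap for 1039 of the 1048 called probes, and they did not overlap for 24.5% of all tested probes.

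Most of the largest rises went from ratios below 2 at E16.5 to ratios of 4 or more at E18.5. Z00071978-1 was at 1.07, 0.50 and 1.14 on the E16.5 arrays of replicates 1, 2 and 3 and at 6.12, 7.63 and 6.10 on the E18.5 arrays. The stages lay far apart, and its step was 5.71 ± 0.39 (SE, n = 3 arrays a stage; limma adjusted p = 4.3e-07). Z00076319-1 was at 1.52, 0.81 and 1.41 and then at 6.01, 6.68 and 6.09, a step of 5.02 ± 0.25 (SE; adjusted p = 9.2e-09). Of the 12 largest rises it had the tightest E18.5 arrays (SD 0.36).

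The probe with the largest step, Z00073883-1, differed in that its ratio lay far below 0 at E16.5. Its ratios were -4.16, -3.62 and -4.04 at E16.5 and 1.56, 3.46 and 0.42 at E18.5, so the digit tip went from far below the reference pool to above it. The step was 5.76 ± 0.48 (SE; adjusted p = 3.2e-06), although the E18.5 arrays alone spanned more than 3 on the log2 scale. Z00071847-1 shares 53 bases with this probe and gave a step of 5.69 ± 0.46 (SE), with arrays at -4.08, -3.62 and -4.03 and then 1.53, 3.41 and 0.40. Both probes followed the same array order, with replicate 2 highest at each stage.

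Z00028697-1 was already present at E16.5, at 3.43, 2.25 and 3.54, and reached 6.39, 7.77 and 9.29 at E18.5. Its last value was the highest single ratio on the wild-type arrays among the 24 probes named here, and its step was 4.75 ± 0.60 (SE; adjusted p = 2.8e-04). Unlike the other 11 largest rises, in which E18.5 replicate 2 was the highest array, it was highest in replicate 3. Z00075955-1 rose by 4.67 ± 0.43 (SE; adjusted p = 9.0e-06), from 0.80, 0.54 and 0.95 to 5.35, 6.45 and 4.49. Its sequence is a tandem repeat, in which TATGG, in capitals, stands 5 times on the printed strand.
Z00075955-1: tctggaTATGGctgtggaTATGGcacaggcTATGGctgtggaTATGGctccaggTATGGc
Over the tested probes 4.84% held TATGG at least once and 3 probes held it 3 times or more, of which this one alone rose.

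The remaining 6 of the 12 largest rises had steps from 3.97 (Z00026122-1) to 4.48 (Z00022399-1). Z00022399-1 moved from 0.57, 0.33 and 0.63 to 4.87, 5.65 and 4.47. Z00048600-1 lay at 0.07, 0.06 and -0.06 at E16.5, where it was dim (not well above background) on every array, and at 3.32, 5.10 and 3.76 at E18.5. Its normalized Cy3 signal at E18.5 was at least 22.2-fold higher, a bound set against the lowest signal that was well above background. Z00026122-1 was likewise dim on all 3 E16.5 arrays and was at least 16.2-fold higher at E18.5. Its step was not called when the 6 arrays were fitted alone (limma adjusted p = 0.055) or in the first scan batch alone (adjusted p = 0.18). Without a dye swap, a bias of the dyes can enter these bounds.

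**Figure D1:**
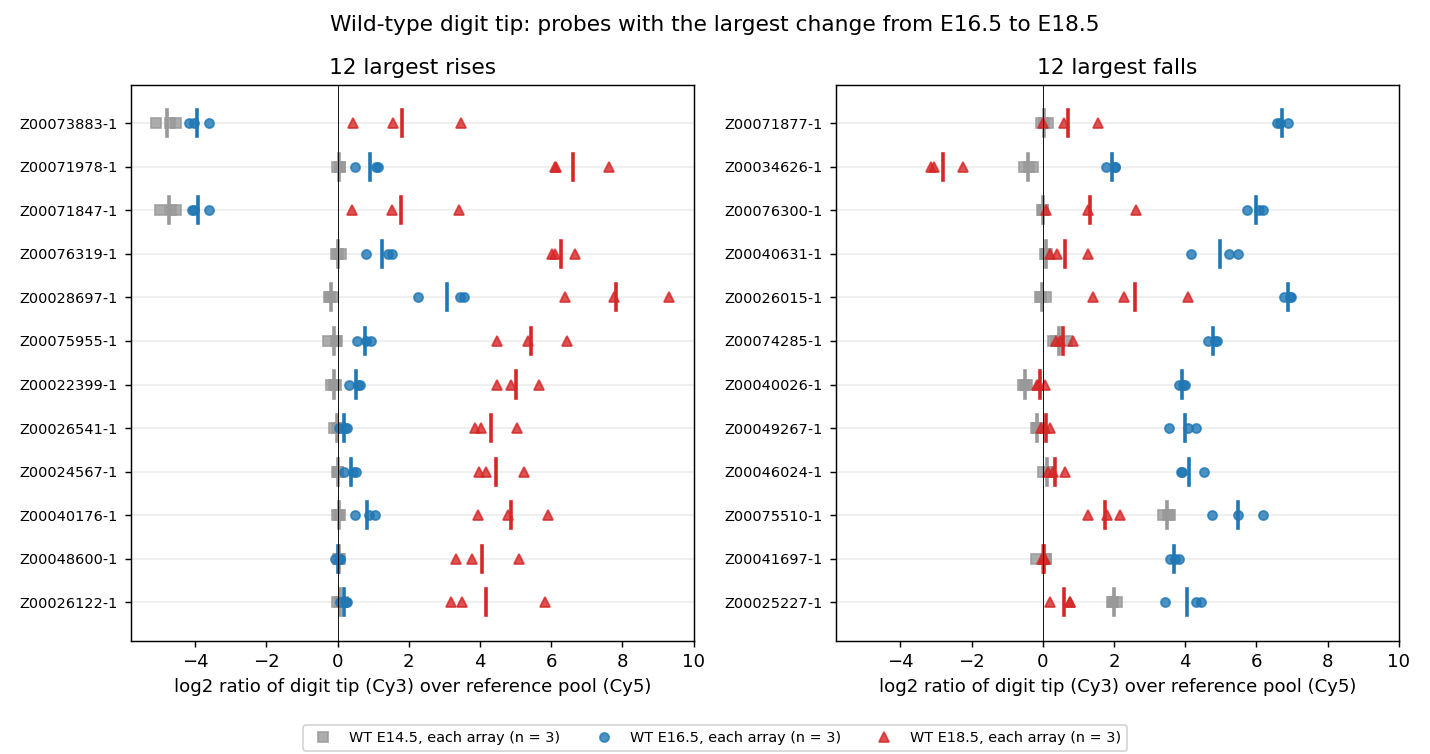
Log2 ratio of digit tip over reference pool (x axis) for the 12 probes with the largest rises (left) and the 12 with the largest falls (right), with 1 symbol per wild-type array and a vertical bar at the mean of the 3 arrays of a stage. The E18.5 triangles of Z00071978-1 lie between 6.10 and 7.63, right of its E16.5 circles, and the E16.5 circles of Z00071877-1 lie between 6.58 and 6.88, right of the other stages.

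The largest falls ran from a high E16.5 level. In all 12 the E16.5 arrays lay above the E14.5 arrays, as they did in 9 of the 12 largest rises. The share of all tested probes with such arrays was not computed. Limma called 4315 of the 27990 tested probes as rising from E14.5 to E16.5 (adjusted p under 0.05). The falls were chosen on these same E16.5 arrays, so the count of 12 describes them and is no test. Z00071877-1 was at 6.58, 6.67 and 6.88 at E16.5 and at 0.61, 1.54 and 0.01 at E18.5, a step of -5.99 ± 0.52 (SE; limma adjusted p = 6.2e-06). At E14.5 the same probe lay at 0.15, 0.02 and -0.04 and was dim on all 3 arrays. Z00076300-1 had the same course, from 5.74, 6.06 and 6.19 to 1.28, 2.61 and 0.08, a step of -4.68 ± 0.49 (SE; adjusted p = 3.5e-05). With the scanner software's own processed signals these 2 probes fell by less and were not called, at -2.92 (adjusted p = 0.076) and -1.53 (adjusted p = 0.31).

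Z00026015-1 depended most on the processing. Its E16.5 arrays were at 6.93, 6.78 and 6.97 and its E18.5 arrays at 2.27, 4.07 and 1.40, and its step was -4.32 ± 0.69 (SE; adjusted p = 0.0026). With the processed signals it was -0.22 (adjusted p = 0.82), and without WT E18.5 replicate 3 it was -3.73 (adjusted p = 0.061). The cause was not tested.

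With the processed signals 20 of the 24 named probes were called, among them the 3 falls that follow. The ratio of Z00034626-1 went from 2.03, 2.02 and 1.77 to -2.25, -3.13 and -3.05, a step of -4.75 ± 0.34 (SE; adjusted p = 5.2e-07). Z00040026-1 had the smallest error of the 12, with 3.99, 3.93 and 3.81 at E16.5, 0.07, -0.15 and -0.13 at E18.5 and a step of -3.98 ± 0.14 (SE; adjusted p = 1.5e-10). Z00046024-1 fell by 3.76 ± 0.19 (SE; adjusted p = 9.2e-09), from 4.54, 3.92 and 3.89 to 0.15, 0.62 and 0.30.

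Z00075510-1 and Z00025227-1 had a shallower course, since both were well above background on all E14.5 arrays, with means of 3.48 and 2.00 there. Z00075510-1 went from 6.18, 4.76 and 5.48 at E16.5 to 1.28, 2.18 and 1.82 at E18.5. Z00025227-1 went from 4.45, 3.44 and 4.31 to 0.21, 0.77 and 0.77, a step of -3.48. With the processed signals this step was -1.58 (limma adjusted p = 0.059) and was not called. Of the 12 largest falls, 7 were dim on all E14.5 arrays. Of the 12 largest rises, 10 were dim there.

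The same course was looked for over all called probes by their detection alone. Of the 577 falling probes, 52 (9.01%) were dim on all E14.5 arrays and well above it on all E16.5 arrays, a course that 434 of all tested probes (1.55%) had. Over these 52 probes the median level was 0.00 at E14.5, 1.84 at E16.5 and 0.34 at E18.5. Of the 471 rising probes, 60 (12.7%) were dim on all E14.5 arrays, against 4.26% of all tested probes. The E16.5 arrays enter both steps, so these shares describe the called probes and are no test.

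A change from dim on all arrays of one stage to well above background on all arrays of the other was seen for 28 called probes. Of these, 17 appeared at E18.5, with bounds from at least 1.38-fold to at least 22.2-fold higher. The other 11 were lost by E18.5, with bounds from at least 1.5-fold to at least 10.4-fold lower. Over all tested probes 282 crossed in the first direction and 95 in the second, so most such crossings did not pass the test.

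Whether the step recurred in other embryos was read from the KO arrays of the same stages, which share no array with the wild type but enter the same fit. In the KO, 16.1% of all tested probes rose and 15.3% fell from E16.5 to E18.5. Of the 471 probes that rose in the wild type, 390 (82.8%) also rose in the KO and 3 fell there. Of the 577 that fell in the wild type, 258 (44.7%) also fell in the KO and 47 (8.15%) rose. The median KO step was 0.97 for the rising probes and -0.29 for the falling probes, against -0.01 over all tested probes. WT and KO arrays of these stages lay on other slides, so slide and genotype cannot be told apart in this comparison. The KO arrays of a replicate lay on the same slide at both stages, while wild-type replicates 1 and 2 changed slide between the stages. A difference between slides can so enter the wild-type step more than the KO step, which was not tested for the comparison of genotypes.

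The KO step was then set beside the wild-type step by size. Over all tested probes 48.6% had a KO step above 0 and 51.4% one below 0. All 51 tested probes with a wild-type step above 2 had a KO step above 0, with a median KO step of 3.62 beside a median wild-type step of 2.65. A KO step below 0 was found for 71.1% of the probes with a wild-type step between -0.5 and -0.2 and for 75.7% of those between -1 and -0.5. Of the 276 probes with a wild-type step between -2 and -1, 60.9% had a KO step below 0, and the median KO step was -0.24 beside -1.21. Of the 47 probes at -2 or below, 87.2% had a KO step below 0, with a median of -1.49 beside -2.75.

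**Figure D2:**
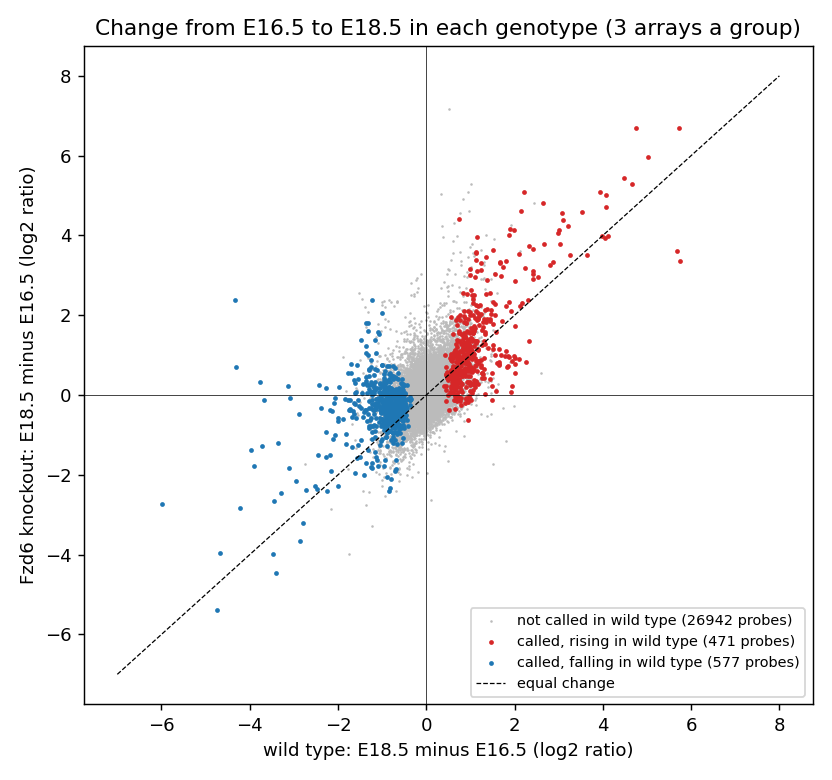
Each point is 1 of 27990 tested probes, with its change from E16.5 to E18.5 (log2 ratio) in the wild type on the x axis and in the KO on the y axis, from 3 arrays a group, and the dashed line marks equal change. Rising probes (red, 471) lie mostly above 0 on the y axis, where 94.7% of them stand, while 74.7% of the falling probes (blue, 577) lie below 0. Over all tested probes 48.6% lie above 0 and 51.4% below.

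The difference between the 2 steps was tested directly. It passed for 986 of 27990 probes (3.52%; limma, adjusted p under 0.05), with the KO step higher than the wild-type step for 792 and lower for 194. It passed for 471 when WT E16.5 replicate 1 was left out, 480 without the third WT E18.5 array, 527 without KO E18.5 replicate 2 and 647 without KO E16.5 replicate 1. This test uses the wild-type arrays that also chose the probes named above. Of the 12 largest wild-type rises all 12 rose in the KO, with steps from 3.36 to 6.70, and the difference passed for 1. Of the 12 largest falls 8 fell in the KO and 1 rose, and the difference passed for 8. Over the 191 probes with a called fall of 2-fold or more, the median level at E16.5 was 1.92 in the wild type and 1.03 in the KO. At E18.5 it was 0.35 and 0.58. Over the 202 probes with a called rise of 2-fold or more, the median level at E16.5 was 0.12 in the wild type and -0.001 in the KO. At E18.5 the rises had medians of 1.61 and 1.83. Both sets were chosen on the wild-type arrays and not on the KO arrays, so these medians describe them and are no test of genotype.

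The 4 probes whose KO step most exceeded the wild-type step were of 2 kinds. Z00040631-1 and Z00026015-1 had fallen in the wild type. Z00040631-1 went from 5.49, 4.16 and 5.24 to 0.39, 1.27 and 0.20 in the wild type and from 0.60, 0.20 and 0.91 to 1.63, 1.76 and 5.44 in the KO, where 1 array of E18.5 stood far above the others. The steps differed by 6.72 ± 1.13 (SE; adjusted p = 0.0032). Its fall in the wild type, -4.34 ± 0.93 (SE; adjusted p = 0.018), did not pass without WT E16.5 replicate 1 (adjusted p = 0.085), WT E18.5 replicate 2 (0.061) or WT E18.5 replicate 3 (0.20). The Z00026015-1 steps differed by 5.01 ± 0.85 (SE; adjusted p = 0.0032), and with the processed signals by 1.14 (adjusted p = 0.39).

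The other 2 had no called step in the wild type. Z00040994-1 was already at its height in wild-type digit tips at E16.5, at 6.51, 5.99 and 6.32, and stayed there at E18.5, at 6.14, 6.56 and 7.66. In the KO it was at 0.15, -0.08 and 2.08 at E16.5 and at 7.72, 7.84 and 8.10 at E18.5. The difference of steps was 6.65 ± 0.72 (SE; adjusted p = 8.3e-05), and the E18.5 KO arrays lay above all wild-type arrays. Z00023034-1 was above background on 1 of the 6 wild-type arrays and on all 3 KO E18.5 arrays, at 3.73, 3.47 and 2.76. Both sequences are shown because they carry the largest contrast between the genotypes that does not rest on a wild-type fall.
Z00040994-1: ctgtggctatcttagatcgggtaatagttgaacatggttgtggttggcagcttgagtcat
Z00023034-1: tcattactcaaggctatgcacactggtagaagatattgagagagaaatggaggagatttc

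In the opposite direction the 4 largest differences among probes that passed were smaller, from -2.40 (Z00073883-1) to -1.72 (Z00041516-1). None of these 4 passed with median centring (limma adjusted p = 0.18 to 0.32) or in the first scan batch alone (0.050 to 0.36). Z00073883-1 rose in both genotypes but started higher in the KO, at -0.23, -0.50 and -0.14 at E16.5. The probe that shares 53 bases with it, Z00071847-1, differed by -2.07 and did not pass (adjusted p = 0.054). Z00025996-1 stayed level in the wild type, at 0.14, 0.37 and 0.37 and then 0.26, 0.26 and 0.41, and went from a mean of 0.93 to a mean of -1.02 in the KO.

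Probes that share sequence can read the same RNA and give a check within each array. Among the tested probes, 608 groups shared a stretch of 30 or more bases, 575 of them pairs. The 2 steps of a pair differed by a median of 0.04, while the median size of a step in these probes was 0.23, and 2 of the 575 pairs differed by more than 1. Across the pairs the steps correlated at r = 0.964, as a description over probes that share arrays and target. Of the 1269 probes in these groups 71 were called (5.59%), beside 3.74% of all tested probes. Of the 39 groups with a call, 29 had every member called, 14 of them rising and 15 falling, and no group had calls in opposite directions.

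**Figure D3:**
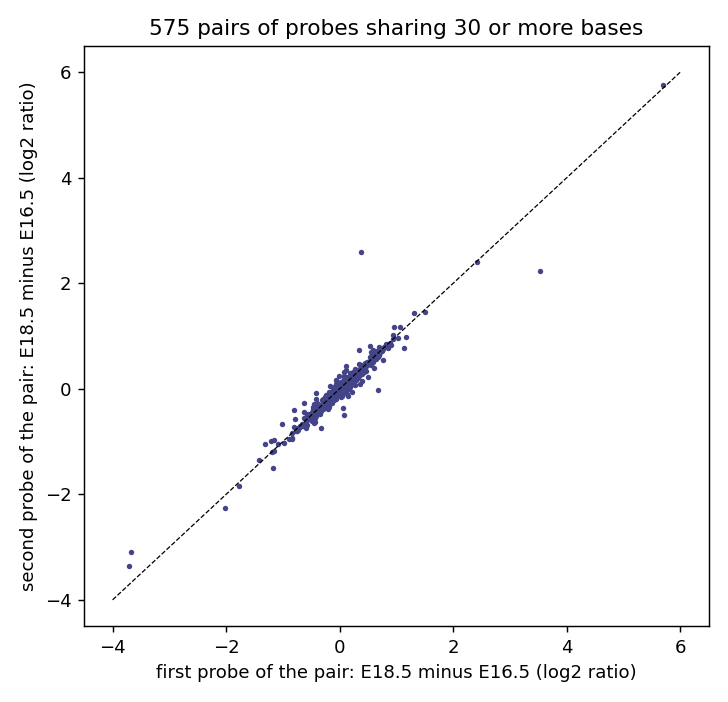
Each point is 1 of 575 pairs of probes that share 30 or more bases, with the change from E16.5 to E18.5 in the wild type (log2 ratio) of one probe on the x axis and of the other on the y axis. The dashed line marks equal change, and the points follow it (r = 0.964).

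Of the falling groups, 2 are shown because their signal stood high on the wild-type E16.5 arrays and near 0 in the KO at both stages. Capitals mark the stretch the members share.
Z00041697-1: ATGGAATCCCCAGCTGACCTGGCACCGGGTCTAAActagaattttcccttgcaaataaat
Z00075312-1: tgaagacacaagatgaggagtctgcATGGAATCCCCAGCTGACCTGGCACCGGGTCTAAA
Z00024325-1: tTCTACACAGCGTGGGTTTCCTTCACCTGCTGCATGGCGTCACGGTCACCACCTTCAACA
Z00060342-1: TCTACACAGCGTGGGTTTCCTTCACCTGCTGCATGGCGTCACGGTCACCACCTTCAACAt
Z00041697-1 was at 3.82, 3.56 and 3.71 at E16.5 and at 0.03, -0.02 and 0.06 at E18.5, and Z00075312-1 at 3.36, 3.22 and 3.28 and then at 0.01, 0.54 and 0.03. Their steps were -3.67 and -3.09 in the wild type and -0.13 and -0.07 in the KO, and the difference passed for both (limma adjusted p = 3.5e-05 and 3.1e-05). Since both groups were picked for high wild-type and low KO levels, a difference of steps follows from that choice. The values describe these groups and add no support. Z00024325-1 and Z00060342-1, offset by a single base, fell by 1.77 ± 0.12 and 1.84 ± 0.14 (SE) in the wild type, with KO steps of -0.12 and -0.11. Their E14.5 means in the wild type were 0.18 and 0.18.

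Members of rising groups also moved alike. Z00071819-1 and Z00070958-1 are 2 probe IDs with the same 60 bases.
Z00071819-1: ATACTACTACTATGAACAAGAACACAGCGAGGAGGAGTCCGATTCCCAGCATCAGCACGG
They gave 1.65, 0.75 and 1.52 and 1.75, 0.69 and 1.59 at E16.5, and 3.03, 3.66 and 4.50 and 3.01, 3.69 and 4.56 at E18.5, for steps of 2.43 and 2.41. The gap between these probes was far below the gap between embryos of one stage. Among the tested probes 12 sets had identical sequences, and their steps differed by a median of 0.03 and at most 0.28. Z00073736-1 and Z00073023-1, which share 43 bases, rose by 3.53 and 2.24, and here the array order was the same while the size was not.

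Sequence content was compared as a description. The mean GC content was 45.0% in rising, 44.7% in falling and 44.7% in all tested probes. AATAAA, searched on the printed strand, was in 63 of 471 rising probes (13.4%), 32 of 577 falling probes (5.55%) and 7.68% of all tested probes. Among probes that changed 2-fold or more it was in 12.9% of the rising and 7.85% of the falling ones. Its reverse complement TTTATT, with overlaps between motifs allowed, was in 2.12%, 3.47% and 3.14%. The variant signal ATTAAA was in 2.76% of rising, 1.04% of falling and 3.32% of all tested probes. Probes with AATAAA were brighter, with a median normalized Cy3 signal of 9.91 on the log2 scale against 8.80 over all tested probes. Rising and falling probes had medians of 9.79 and 10.37, and the part of signal in these shares was not tested.

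**Figure D4:**
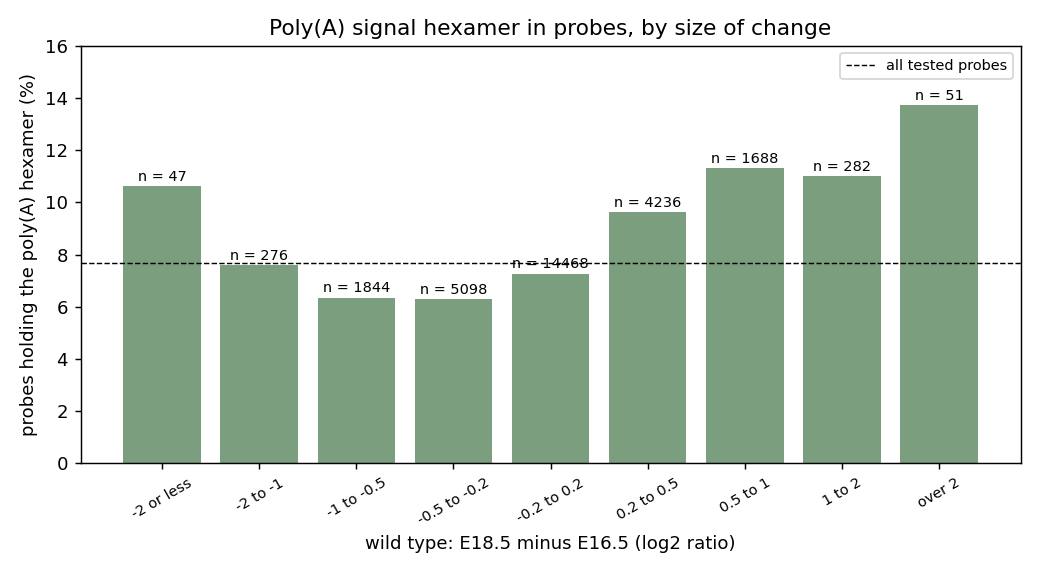
Share of tested probes that hold the poly(A) hexamer (y axis, %) by the change from E16.5 to E18.5 in the wild type (x axis, log2 ratio), with the number of probes over each bar and the share over all tested probes (7.68%) as a dashed line. The bar for steps of 0.5 to 1 stands at 11.3% and the bar for -1 to -0.5 at 6.34%, and the end bars, which rest on 51 and 47 probes, stand at 13.7% for steps above 2 and 10.6% for steps of -2 or below.

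Genes could be named only for probes whose sequence lies at an annotated gene start. Matching all probes to RefSeq start windows of GRCm38.p6 (250 bases before to 50 after a start, 60 bases matched or at least 30 up to the window's end) placed 236 probes at the start of one gene, and 123 of these were tested. None was called in the wild-type step, where 3.74% of all tested probes were. At an unadjusted p under 0.05 there were 13, beside 5739 of the 27990 tested probes. Of the 123, limma called 11 without weights, 15 with Cy3 alone, 17 with no background subtraction and 20 with the processed signals. In the same order it called 4857, 5516, 5879 and 5560 of all 27990 tested probes. Their steps ran from -1.01 to 0.83 with a median of 0.02. A probe near a start may read another transcript, so the positions below are those of the probe.

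The 3 located probes shown next were chosen because the first 2 differed between the genotypes and the last had the lowest adjusted p of a fall at an own gene start. Capitals mark the bases inside the start window.
Atg3: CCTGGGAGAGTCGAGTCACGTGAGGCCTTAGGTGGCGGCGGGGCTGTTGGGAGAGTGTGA
Pitpnm2: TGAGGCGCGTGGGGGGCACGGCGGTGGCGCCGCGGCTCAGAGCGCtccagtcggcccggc
Mif: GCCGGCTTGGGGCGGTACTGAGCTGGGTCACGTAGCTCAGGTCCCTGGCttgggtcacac
The first lies just upstream of Atg3, which encodes an enzyme of autophagy, at chr16:45158742-45158801 on the plus strand, where no gene is annotated. It was at 2.90, 2.65 and 2.34 at E16.5 and at 1.23, 2.24 and 1.42 at E18.5, a step of -1.01 ± 0.28 (SE; limma adjusted p = 0.057). This step passed under 6 of the alternatives, with adjusted p from 0.0097 without weights to 0.040 with the processed signals. In the KO it went from 1.35, 0.99 and 1.74 to 3.38, 3.83 and 3.65, and the 2 steps differed by 3.27 (adjusted p = 6.0e-05).

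The second matched over 45 bases just after the start of Pitpnm2, which encodes a phosphatidylinositol transfer protein, at chr5:124249711-124249755 on the minus strand. It was at 0.96, 0.69 and 0.63 and then at 0.14, 0.78 and 0.19 in the wild type, so the stages overlapped, with a step of -0.40 (adjusted p = 0.37). The KO arrays went from 0.14, -0.09 and 0.25 to 1.63, 2.21 and 1.96, and the steps differed by 2.23 (adjusted p = 4.0e-04). In the first scan batch alone this difference did not pass (limma adjusted p = 0.076). Mif, which encodes a cytokine, was matched over 49 bases at chr10:75860228-75860276 on the minus strand. Its arrays were at -0.84, -0.84 and -1.06 and then -1.41, -1.60 and -1.79, and the step of -0.69 ± 0.20 (SE; adjusted p = 0.066) did not pass. It passed under 9 of the alternatives, with adjusted p from 0.0057 with no background subtraction to 0.039 with no filter, among them 9 wild-type arrays (0.034), slide fixed (0.039) and the processed signals (-0.83, 0.0097).

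Other located genes had values that did not pass in the reported fit either. Gstp1, a glutathione transferase, had a step of -0.34 (adjusted p = 0.15) and Prdx1, a peroxiredoxin whose start overlaps another annotated gene, a step of -0.54 (adjusted p = 0.18). The Gstp1 step passed under some alternatives, with limma adjusted p from 0.0057 with Cy3 alone to 0.049 without WT E18.5 replicate 1. For 6 of the 123 located probes the KO and wild-type steps differed, where 3.52% of all tested probes did. Besides those at Atg3 and Pitpnm2, the probe at Tor1aip2, which encodes a nuclear membrane protein, had a step of -0.72 in the wild type and 0.48 in the KO, a difference of 1.2 (adjusted p = 0.019). It lies where Tor1aip1 is also annotated. The probe at Arl6, a small GTPase of cilia, had -0.24 and 0.70, a difference of 0.94 (adjusted p = 0.0099), at a start that overlaps another annotated gene. Hspd1, a mitochondrial chaperone, had a step of -0.25 in the wild type and 0.67 in the KO, and the difference of 0.91 had an adjusted p of 0.030. The differences at Tor1aip2, Arl6 and Hspd1 did not pass with median centring (limma adjusted p = 0.22 to 0.55) or in the first scan batch alone (0.10 to 0.36). That at Tor1aip2 also did not pass with an offset of 10 (0.079) or the processed signals (0.082). The lists of skin, nail, signalling and cell type marker genes held 778 genes, of which 7 had a located probe and 3 were tested. These were S100a7a, an epidermal calcium-binding protein, with a step of -0.22 (adjusted p = 0.51), the ribosomal protein gene Rpl10a with -0.69 (adjusted p = 0.42) and Aqp5, a water channel of sweat glands whose probe lies upstream in another annotated gene, with 0.08 (adjusted p = 0.95). With so few members measured, the lists say nothing of their pathways, and the tissue could not be checked against its markers here.

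The number of called probes changed with the model and with the arrays that entered it. It was 4857 when all groups shared one spread, 217 when the 6 arrays were fitted alone and 181 without WT E18.5 replicate 3. The first 2 of these settings leave each stage's mean, and so each step, as it was, and change only the test. With the processed signals 1037 of the 1048 probes kept their direction, and 1025 did with median centring. Without WT E18.5 replicate 1 the count was 2614, without WT E18.5 replicate 2 it was 295, and without WT E16.5 replicate 1 it was 305.

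Replicates 1 and 2 of the 2 stages lay on different slides, while both arrays of replicate 3 lay on one slide and were scanned later. Fitted on replicates 1 and 2 alone, 131 probes were called, 73 rising and 58 falling. The pair of replicate 3 had no part in that fit, but its arrays entered the filter that chose the tested probes, so it is not an independent check. This pair moved the same way for 131 of the 131, and for 70.2% of all tested probes. Its median difference was 1.60 for the rising probes, beside 1.61 in the first scan, and -1.99 for the falling probes, beside -2.12. For Z00071978-1 the difference was 6.09 in the first scan and 4.96 on the single slide, and for Z00071877-1 it was -5.55 and -6.87.

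**Figure D5:**
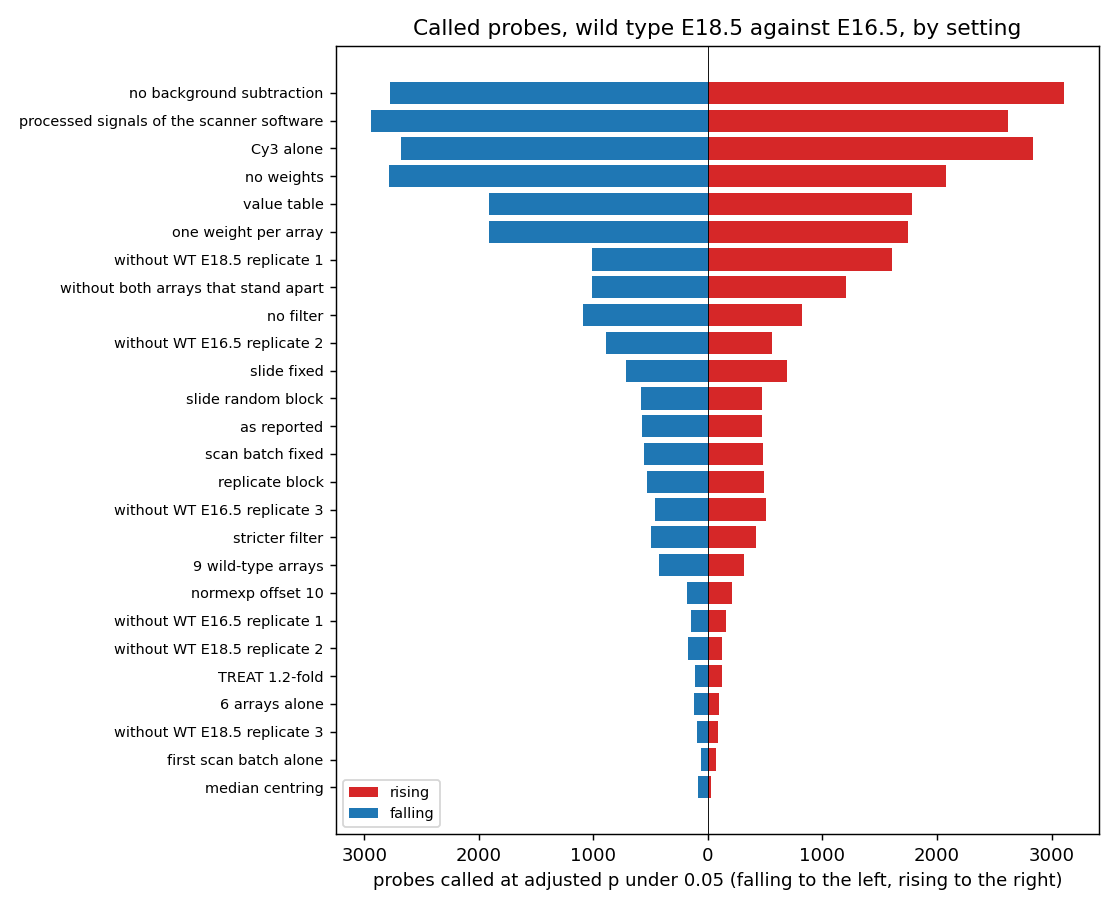
Number of probes called at adjusted p under 0.05 (x axis), falling to the left and rising to the right, for wild-type E18.5 against E16.5 under each processing setting, 1 bar per setting. The reported setting called 471 rising and 577 falling probes, and the totals run from 112 with median centring to 5879 with no background subtraction.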

How the data were processed

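Per the file headers, the deposited scanner files come from Agilent Feature Extraction 9.5.1.1. They give each spot's mean and background intensity per dye and a log10 ratio. The deposited value table of the series, whose scale is not stated and which followed log10 of Cy3 over Cy5 against the scanner values, served as an alternative. The quality flags of Feature Extraction (other columns of the scanner files) gave outlier spots and spots well above background. Spot intensities were corrected with normexp (offset 50) and loess in limma 3.58.1 (R 4.3.3). Control spots and outliers were left out, and spots of a probe were averaged. Of 42006 probes, 27990 were tested, which needed a Cy3 signal flagged well above background on every array of some group, and 2 or more values in each of the 6 groups. On the 6 arrays compared, 26378 to 28148 probes had that flag.

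One mean per group was fitted to 18 arrays with a weight per group (WT E16.5 0.668, WT E18.5 0.399), lmFit and eBayes, with Benjamini-Hochberg adjustment and a threshold of 0.05. The step and the KO step minus the wild-type step were tested. The procedure was run on simulated data with independent noise for each probe and array. Those data held no slide, batch or deviation shared between arrays, so the run cannot show how often calls here are false. The named probes were the 12 largest rises and 12 largest falls among called probes with non-overlapping arrays and signal on all arrays of the higher stage, and the 4 largest differences each way for the KO comparison. The rule asked for gene names, and its criterion was applied to IDs because no probe with a gene was called in the wild-type step. For the KO comparison the 4 largest are given among IDs and among located genes, which were all higher in KO. Located probes and shared-sequence groups described in the text were chosen after their values were seen. The match of part of a probe to a start window was added after seeing the files. The members, lists and tests were chosen with earlier results of these data known. Alternatives covered background correction, normalization, filter, weights, samples, slide, scan batch, replicate block and left-out arrays. Deviations from the stage means of arrays with the same replicate number correlated at -0.32, -0.72 and 0.09, so the numbers were not taken as pairs.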

Additional observations from a re-analysis of the deposited data

Results flagged for a closer look

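The results below were singled out because the change from E16.5 to E18.5 differed between KO and wild type by the test of the difference itself (limma, adjusted p under 0.05). In all 986 probes passed. Among the largest wild-type falls, the KO step minus the wild-type step was 6.72 for Z00040631-1, 5.01 for Z00026015-1, 4.09 for Z00046024-1, 3.54 for Z00041697-1, 3.27 for Z00071877-1, 2.61 for Z00040026-1, 2.45 for Z00075510-1 and 2.14 for Z00049267-1. Among the largest rises it was -2.40 for Z00073883-1. For probes named by this difference it was 6.65 for Z00040994-1, 4.71 for Z00023034-1, -1.97 for Z00025996-1, -1.72 for Z00074438-1 and -1.72 for Z00041516-1. For the located probes it was 3.27 for Z00067713-1 (at Atg3), 2.23 for Z00066495-1 (at Pitpnm2), 1.2 for Z00073967-1 (at Tor1aip2), 0.94 for Z00065658-1 (at Arl6) and 0.91 for Z00032143-1 (at Hspd1).

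Z00046024-1 was not well above background on any KO array of either stage, at -1.07, -0.88 and -1.08 at E16.5 and -0.60, -0.70 and -0.74 at E18.5, beside 4.54, 3.92 and 3.89 in the wild type at E16.5. The difference of Z00073883-1 did not pass without replicate 1 or 3 of KO E16.5, replicate 2 of KO E18.5, replicate 1 or 3 of WT E16.5, or replicate 1 or 2 of WT E18.5 (adjusted p = 0.060 to 0.093). That of Z00032143-1 did not pass without replicate 1 or 3 of KO E16.5, replicate 1 of WT E16.5, or replicate 2 or 3 of WT E18.5 (adjusted p = 0.051 to 0.17). That of Z00074438-1 did not pass without WT E18.5 replicate 3 (adjusted p = 0.099), nor that of Z00065658-1 (0.061). That of Z00073967-1 did not pass without KO E16.5 replicate 1 (adjusted p = 0.050), KO E18.5 replicate 2 (0.066) or WT E16.5 replicate 1 (0.062). The differences of Z00073883-1, Z00025996-1, Z00074438-1, Z00041516-1, Z00032143-1, Z00065658-1 and Z00073967-1 did not pass with median centring or in the first scan batch alone. Groups of 3 arrays were not tested for outliers.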

How the results depend on the processing

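The count of called probes in the wild-type step was 1048, and it was 5560 with processed signals, 5879 with no background subtraction, 396 with an offset of 10, 112 with median centring, 5516 with Cy3 alone, 3697 with the value table, 1909 with no filter, 4857 with no weights, 3655 with one weight per array, 217 with the 6 arrays alone, 131 with the first scan batch alone and 237 with TREAT against a 1.2-fold change. Leaving out single arrays gave 181 to 2614. Leaving out both arrays that stand apart, chosen after seeing the data, gave 2215. It stayed within 1.5 times of 1048 with the stricter filter (915, all shared with the 1048), 9 wild-type arrays (744, 582 shared), slide fixed (1408, 754 shared), slide as a random block (1055, 1045 shared) and scan batch fixed (1035, 942 shared). Replicate numbers did not pair the arrays, and with the replicate block 1017 probes were called, 890 of them shared. Median centring moved the median step of all tested probes to -0.24 and left 28 rising and 84 falling probes, where 44.9% had risen in the reported fit.

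The count for the KO step minus the wild-type step was 986, and it was 1734 with processed signals, 2423 with no background subtraction, 523 with an offset of 10, 112 with median centring, 2561 with Cy3 alone, 1738 with no weights, 2526 with one weight per array and 215 with the first scan batch alone. It was 471 to 1114 without single arrays, and 1109 with the replicate block. In the reported fit the KO step was higher for 792 probes and lower for 194. With median centring these numbers were 112 and 0, and with the first scan batch alone 198 and 17.

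All 24 named probes kept their sign under every alternative that measured them. Of 778 comparisons of single steps with an alternative, 16 lost a call and 30 gained one, and of 323 of single differences between genotypes 38 lost a call. Depth is not a count here: signals near background compress differences, and 3 arrays a stage limit precision.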
